A study of Mus musculus with 37 samples.

Results

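The NADPH oxidase subunits described here are 6 genes, Nox4, Cyba, Cybb, Ncf1, Ncf4 and Rac2, taken by symbol from a table of 55487 genes measured by RNA sequencing of mouse liver. All 6 passed the filter on low counts that left 15564 genes for testing. The livers came from wild-type mice (WT) and from mice with the genotype NOX4-/- (KO), after removal of most of the liver (partial hepatectomy) or a sham operation. The study asks whether the loss of Nox4 changes liver regeneration.

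NADPH oxidases are membrane enzymes that move electrons from NADPH across a membrane to oxygen. Nox4 is a catalytic subunit that makes mainly hydrogen peroxide, needs only the membrane partner encoded by Cyba, and is active without a switch from the cytosol. Cybb encodes NOX2, the catalytic subunit of the phagocyte oxidase, which makes superoxide in the respiratory burst. NOX2 also needs the Cyba product, and it is switched on when cytosolic subunits, among them those encoded by Ncf1 and Ncf4, and the GTPase encoded by Rac2 join it at the membrane. In liver the phagocyte subunits are known from Kupffer cells, the resident macrophages, and from neutrophils and monocytes, while Nox4 is known from hepatocytes and stellate cells.

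There were 37 libraries, 18 from WT and 19 from KO livers. WT livers numbered 5 for sham and 3, 3, 4 and 3 at 6 h, 24 h, 48 h and 7 d after hepatectomy, and KO livers 5, 3, 4, 4 and 3. Sham livers were pooled within a genotype over times after surgery. WT sham replicates 1 to 5 were taken at 7 d, 48 h, 24 h, 48 h and 6 h, and KO sham replicates 1 to 5 at 24 h, 48 h, 48 h, 72 h and 6 h. Males made up 11 of the WT and 12 of the KO livers, and all 6 livers taken 6 h after hepatectomy were male. The labels name no strain, age, promoter or deleted exon, and whether each liver is a separate animal is not stated, so p-values measure the spread between these samples.

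Total counts were between 26232544 and 48827025 per library. Transcripts of hepatocytes were abundant throughout, with Alb (albumin) at 24283 to 113212 CPM (counts scaled to library size with trimmed-mean factors). On the first principal component, which held 30.2% of the variance, KO 24 h replicate 1 stood at -23.8 and replicates 2, 3 and 4 at 63.3, 85.9 and 73.4. The WT 24 h livers stood at -26.3, -24.6 and 4.62. The livers taken 6 h after hepatectomy stood at 46.2, 36.5 and 67.2 in the WT and at 53.8, 54.3 and 42.4 in the KO. KO 24 h replicate 1 thus lay within the range of the WT 24 h livers, and replicates 2, 3 and 4 lay nearer the 6 h livers. Which KO 24 h livers are typical of that time was not tested. The main results at 24 h in the KO are therefore also given without KO 24 h replicate 1. Every value below is from bulk tissue, in which fewer cells of a type and less RNA per cell cannot be told apart.

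The sequences just before the transcription starts of the members differed between Nox4 and its phagocyte relative Cybb. RefSeq on GRCm38.p6 gave a start for 4 of the 6 genes, and 100 bases before it are shown, with every CG pair in capitals. Promoters rich in CG pairs are common in genes active in many cell types. For Ncf4 and Rac2 no sequence is shown.
Nox4, chr7:87246549-87246648, plus strand: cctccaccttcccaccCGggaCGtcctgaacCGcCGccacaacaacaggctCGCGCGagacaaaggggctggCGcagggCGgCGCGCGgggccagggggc
Cyba, chr8:122432941-122433040, minus strand: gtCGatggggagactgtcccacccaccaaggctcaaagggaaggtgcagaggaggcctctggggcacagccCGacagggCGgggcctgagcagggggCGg
Cybb, chrX:9469325-9469424, minus strand: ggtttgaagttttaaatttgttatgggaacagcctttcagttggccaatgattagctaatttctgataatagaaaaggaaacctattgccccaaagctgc
Ncf1, chr5:134229626-134229725, minus strand: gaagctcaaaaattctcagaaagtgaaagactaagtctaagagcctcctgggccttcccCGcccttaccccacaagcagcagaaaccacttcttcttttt

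The Nox4 stretch was 75% G or C and held 12 CG pairs, and 9.45% of 32851 such stretches held more. The Cybb stretch was 37% G or C and held none, as did 20.7% of all stretches. Cyba had 70% G or C with 4 pairs, and Ncf1 47% with 1 pair. The median stretch was 55% G or C with 3 pairs. None of the 4 overlapped an exon of the GENCODE annotation. The RefSeq starts of Nox4 and Cybb lie inside the longer GENCODE spans of these genes.

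The genes lie on 5 chromosomes (GRCm38). Nox4 (ENSMUSG00000030562.17) spans 87246096 to 87398710 of chromosome 7 on the plus strand. Cyba (ENSMUSG00000006519.11) spans 122424776 to 122432930 of chromosome 8 on the minus strand, and Cybb (ENSMUSG00000015340.10) spans 9435252 to 9487771 of chromosome X on the minus strand. Ncf1 (ENSMUSG00000015950.13) spans 134220053 to 134229625 of chromosome 5 on the minus strand. Ncf4 (ENSMUSG00000071715.12) spans 78244801 to 78262580 on the plus strand and Rac2 (ENSMUSG00000033220.7) spans 78559167 to 78572783 on the minus strand of chromosome 15. Of the 3663 exon bases of Ncf1, 408 overlap exons of Gtf2ird2 on the other strand, and whether the counting used the strand is not given, so Ncf1 counts may include reads of that gene. Cyba lies within the span of Gm20388 on the other strand, with no exon in common.

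Per length of transcript, Cyba was the most abundant subunit. On the scale of CPM per kilobase of merged exons, its mean over the 37 libraries was 10.1, against 2.41 for Rac2, 1.32 for Cybb, 1.21 for Ncf1, 0.664 for Ncf4 and 0.636 for Nox4. The lowest Cyba library, at 2.52 CPM per kilobase, overlapped the range of Rac2, which reached 7.56. Within each of the 37 libraries, however, Cyba was above Rac2, at 2.52 against 0.787 in KO 24 h replicate 3 and 21.9 against 7.56 in KO 7 d replicate 2. The ranges over all libraries of Cybb (0.290 to 4.30) and Ncf1 (0.242 to 3.10), neighbours in this order, overlapped, as did those of Ncf4 (0.222 to 1.88) and Nox4 (0 to 2.78). The place of Nox4 depended on the animals. In WT males it averaged 1.68 ± 0.900 CPM per kilobase (SD, n = 11), beside 1.00 ± 0.514 for Cybb in the same livers. In WT females it averaged 0.186 ± 0.0998 (SD, n = 7), the lowest mean of the 6 genes, beside 1.52 ± 0.440 for Cybb.

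**Figure D1:**
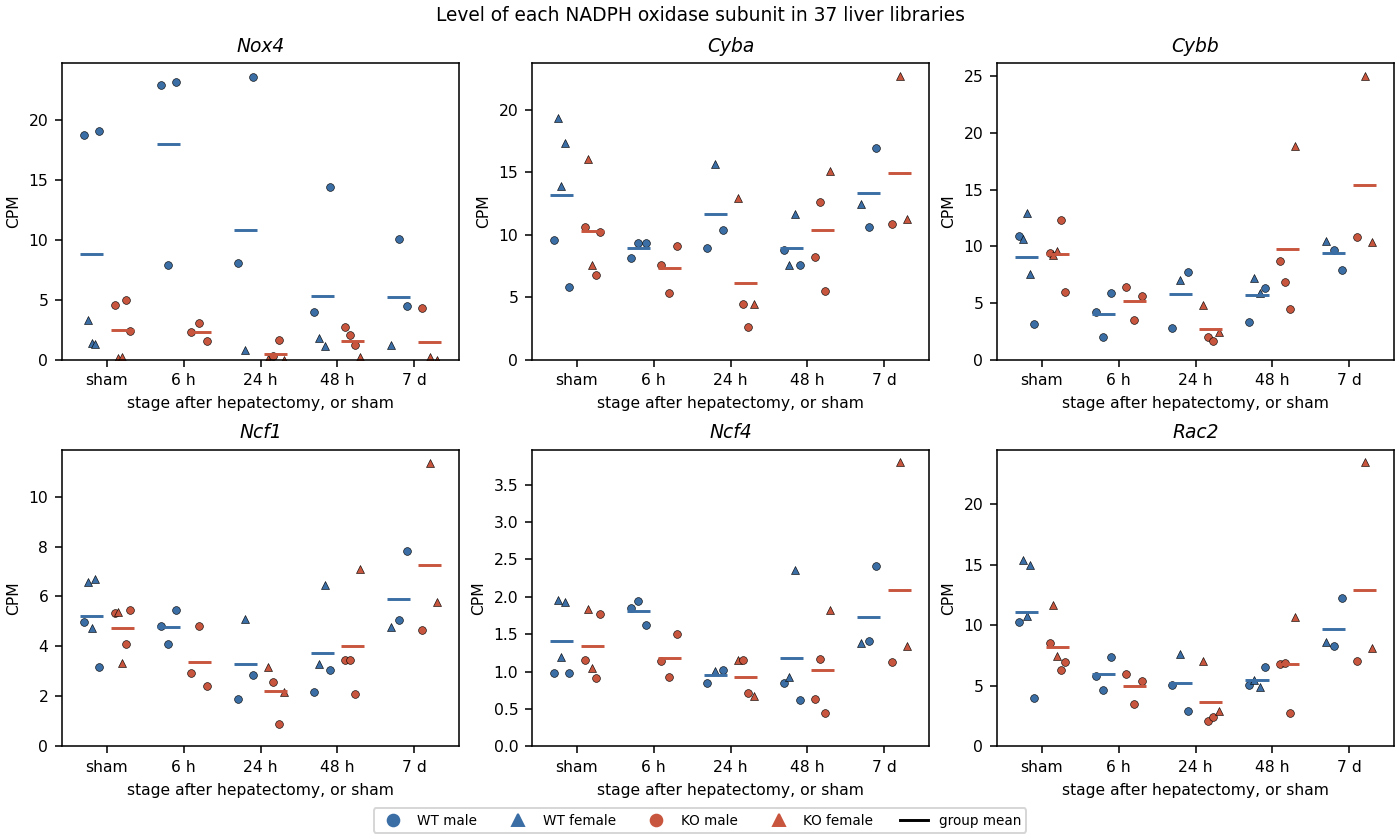
Level in CPM (vertical axes, linear) of each of the 6 subunits in each library, by stage (horizontal axes), with WT in blue, KO in red, circles for males, triangles for females and lines for group means. The KO 24 h points lie low for Cybb and Nox4, and 1 KO female at 7 d is the highest library for all genes but Nox4.

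Nox4, the gene deleted in the KO, was lower in KO livers but not absent, and males exceeded females in both genotypes. WT males ranged from 3.95 to 23.5 CPM with a median of 14.4, and KO males from 0.325 to 4.98 CPM with a mean of 2.60 ± 1.42 (SD, n = 12). WT females ranged from 0.778 to 3.36 CPM (mean 1.57 ± 0.846, SD, n = 7) and KO females from 0 to 0.245 CPM (mean 0.126 ± 0.103, SD, n = 7), which is 0 to 9 counts. Female WT and KO livers did not overlap, and male ones overlapped between 3.95 and 4.98 CPM. Mean KO levels were 18.3% of the WT mean in males and 8.0% in females. The library with no count, KO 24 h replicate 4, allows a level of up to 0.125 CPM (3 counts, counting error only). The labels do not say which exons were removed, and a count summed over the gene does not tell which transcript was left.

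By edgeR's quasi-likelihood test with Benjamini-Hochberg adjustment, Nox4 was lower in the KO averaged over the stages by a log2 difference of -2.82 (SE 0.28, adjusted p = 4.27e-08). Of the 6 members 1 passed there, where 2.72% of all tested genes passed in either direction and 0.694% as lower. By stage the difference passed in sham livers (-2.66, adjusted p = 0.0114), where 0.276% of genes passed, and at 48 h (-2.60, adjusted p = 0.041), where 0.341% passed. It also passed at 24 h (-4.07, adjusted p = 0.000885), where 18.6% of genes passed in either direction and 7.50% as lower. The 6 h value of -2.95 (adjusted p = 0.0577, with 0.116% of genes passing) and the 7 d value of -1.81 (adjusted p = 1, with 0.0450% passing) did not pass, although 1 member, Nox4, had an unadjusted p below 0.05 at each of these times, and DESeq2 passed it at 6 h. The 24 h difference was -3.98 (adjusted p = 0.000189) without KO 24 h replicate 1. It missed the threshold when only the 24 h groups were fitted (-4.31, adjusted p = 0.268). The sham call was lost in males alone (adjusted p = 0.88), without the sex term (0.526) and without KO sham replicate 3 (0.0634), and the 48 h call was lost in 7 of the 8 fits that left out 1 library of the 48 h groups.

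Nox4 also differed between the sexes. With the groups accounted for, it was higher in males by 3.58 (SE 0.34, edgeR adjusted p = 2.67e-09). Male means were 9.03 times female means in the WT and 20.7 times in the KO. The lowest WT male (3.95 CPM) exceeded the highest WT female (3.36 CPM), and the lowest KO male (0.325 CPM) exceeded the highest KO female (0.245 CPM). The KO sexes overlapped when CPM was taken from total counts without scaling factors, with the lowest male at 0.317 and the highest female at 0.335. The genotype difference was smaller in males than in females by 1.25 on the log2 scale (95% interval -0.02 to 2.52, edgeR adjusted p = 1), where 0.00643% of genes passed. Of the lists of liver genes known to differ by sex, 8 of 8 male genes were higher in males and 8 of 8 female genes lower, so the labelled sexes carried the usual marks. Across the libraries Nox4 had a rho of -0.84 (Spearman, n = 37) with the summed female list and 0.65 with the male list. These values carry the sex difference itself. With the 10 groups and sex taken out they were -0.46 and 0.43.

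**Figure D2:**
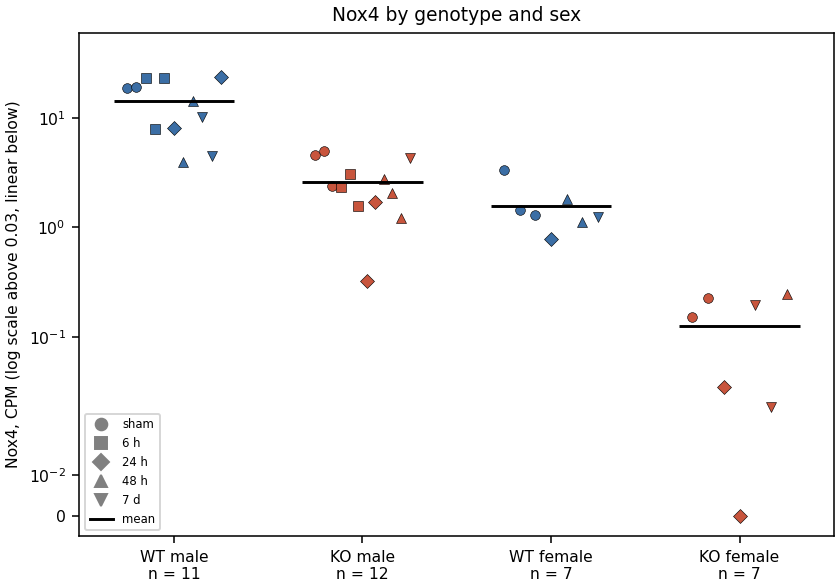
Nox4 level in CPM (vertical axis, logarithmic above 0.03 and linear below) by genotype and sex, with a symbol for each stage and a line for the mean. Males lie above females within each genotype, and KO livers below WT livers of the same sex except for 3 KO males that reach the lowest WT male.

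Changes of Nox4 with stage did not pass in the WT. Against sham the log2 changes were -0.29 at 6 h, -0.67 at 24 h, -0.75 at 48 h and -1.21 at 7 d (95% interval -2.40 to -0.02, edgeR adjusted p = 0.806). WT sham males, taken at 7 d and 6 h, stood at 18.7 and 19.1 CPM, and WT males at 7 d after hepatectomy stood at 4.50 and 10.1 CPM. These pairs did not overlap, but 2 livers on each side are too few to show a difference. In that comparison 0% of all tested genes passed. In the KO at 24 h Nox4 counts were 1, 11, 38 and 0 in replicates 1 to 4, against 170, 5, 9, 258 and 69 in KO sham. The males among them (replicates 2 and 3), at 0.325 and 1.69 CPM, lay below the 3 KO sham males at 2.40 to 4.98 CPM. With sex in the fit the log2 change was -2.08 (SE 0.64, edgeR adjusted p = 0.0156), which missed the threshold without KO 24 h replicate 2 (-1.64, adjusted p = 0.0889), in males alone (-2.09, adjusted p = 0.0544), in the compared groups alone (-2.26, adjusted p = 0.0533) and without the sex term (-2.32, adjusted p = 0.183). It passed without KO 24 h replicate 1 (-2.0, adjusted p = 0.0213).

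After hepatectomy, members passed at 24 h in the KO and at no other time in either genotype. In the WT 0 of the 6 members passed at 6 h, 24 h, 48 h or 7 d, where 7.86%, 0.925%, 8.29% and 0% of tested genes passed by edgeR. At an unadjusted p below 0.05, 0, 1, 1 and 1 members passed at those times. In the KO 0 members passed at 6 h, 48 h and 7 d, where 6.62%, 3.0% and 0% of genes passed, and 0 had an unadjusted p below 0.05. DESeq2 passed 0 members in each of these 7 comparisons. At 24 h in the KO, 5 of the 6 members fell, where 28.0% of genes passed in either direction and 12% as lower. The median log2 change of the 6 was -1.27, beside -0.01 over all tested genes. Ncf4 alone did not pass. Without KO 24 h replicate 1, the same 5 members passed.

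**Figure D3:**
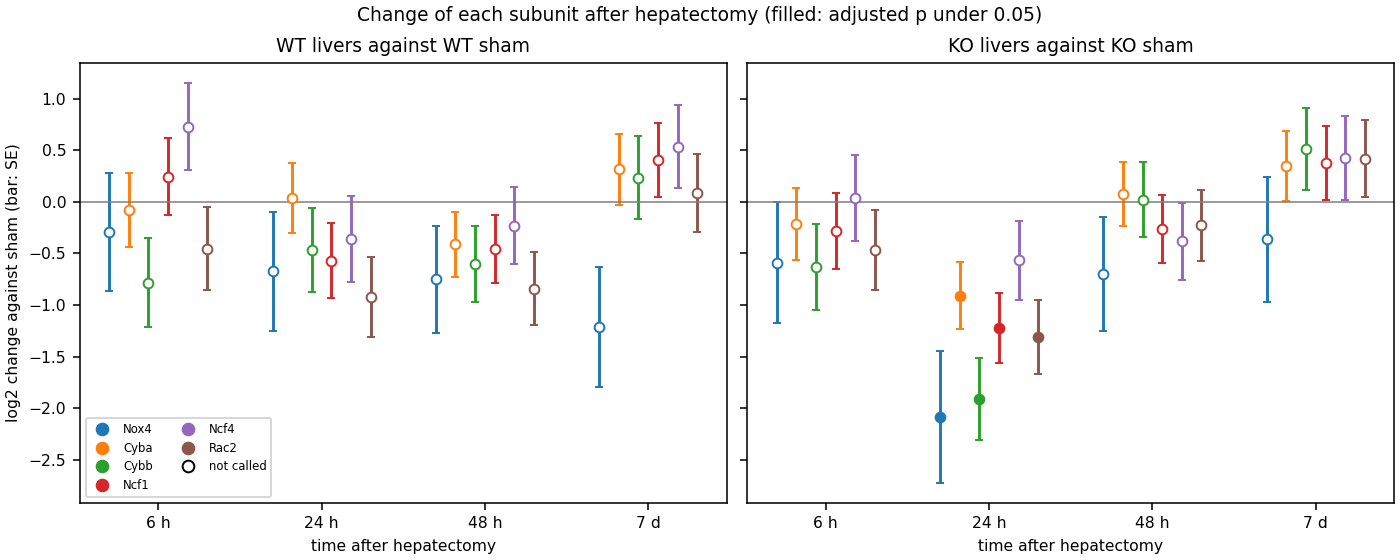
Log2 change against sham of the same genotype (vertical axis, bars are SE) for each subunit at each time after hepatectomy (horizontal axis), WT on the left and KO on the right, with filled points for adjusted p under 0.05. Filled points occur in the KO at 24 h only, for all genes but Ncf4.

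Cybb, the catalytic subunit of the phagocyte oxidase, had the smallest adjusted p of the members in that comparison. KO 24 h replicates 1 to 4 stood at 4.85, 1.98, 1.69 and 2.47 CPM, and KO sham replicates 1 to 5 at 9.45, 9.20, 9.60, 12.3 and 5.94 CPM. Every KO 24 h liver lay below every KO sham liver. The log2 change was -1.91 (SE 0.39, edgeR adjusted p = 0.000821), and it passed in each of 9 fits without 1 of these libraries (-2.18 to -1.75). The WT 24 h livers stood at 2.77, 7.00 and 7.71 CPM, and the WT sham livers at 10.9, 10.6, 12.9, 7.60 and 3.19 CPM, which overlapped.

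Between the genotypes at 24 h, Cybb was lower in the KO by -1.24 (SE 0.42, edgeR adjusted p = 0.0409). WT 24 h replicate 1, at 2.77 CPM, lay within the KO range. The call was lost without WT 24 h replicate 2 or 3 (adjusted p = 0.0578 and 0.194) and without KO 24 h replicate 2, 3 or 4 (0.088, 0.119 and 0.124). The difference between the responses of the genotypes at 24 h was -1.44 (SE 0.55, adjusted p = 0.0912), where 8.47% of genes passed and 0 members did by edgeR or DESeq2, with 1, Cybb, below an unadjusted p of 0.05. Without KO 24 h replicate 1, it passed for Cybb (-1.70, adjusted p = 0.0285) and for Cyba (-1.37, adjusted p = 0.0204). At 6 h, 48 h and 7 d Cybb in KO livers ranged from 3.53 to 25 CPM.

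Cyba, the membrane partner of both catalytic subunits, had the smallest fall of the 5. KO 24 h replicates 1 to 4 stood at 12.9, 4.46, 2.62 and 4.43 CPM, and KO sham replicates 1 to 5 at 10.6, 16.1, 7.60, 6.78 and 10.2 CPM. Replicate 1 lay within the sham range and the other KO 24 h livers below it. The log2 change was -0.91 (SE 0.32, edgeR adjusted p = 0.034), and it passed in 3 of 9 fits without 1 library. Without KO 24 h replicate 1 it was -1.37 (adjusted p = 0.00109). WT 24 h livers stood at 8.93, 15.7 and 10.4 CPM, and the KO to WT difference at 24 h was -1.10 (SE 0.36, adjusted p = 0.0309), which passed in 1 of 7 fits without 1 library, the one without KO 24 h replicate 1. Cyba and Cybb were 2 of the 3 members that were lower in the KO at 24 h, with Nox4, where 18.6% of genes passed in either direction and 7.50% as lower. In the same comparison 3 of 12 Kupffer cell markers (Cd5l, Vsig4 and Adgre1) and 2 of 10 pan-leukocyte markers (Tyrobp and Ptpn6) were lower in the KO and none higher. Of the sinusoidal endothelial markers 8 of 10 were lower (median log2 difference -1.72), and of the T and NK cell, B cell and monocyte-derived macrophage markers 1 each. Without KO 24 h replicate 1 the counts were 8 of 12 for Kupffer cell, 3 of 10 for pan-leukocyte and 8 of 10 for endothelial markers, where 35% of all tested genes passed. The part of these cell types in the differences was not tested.

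Ncf1, the organizer that brings the cytosolic subunits to the membrane, stood at 3.16, 2.57, 0.888 and 2.17 CPM in KO 24 h replicates 1 to 4. The KO sham livers, in order of replicate, had 5.32, 5.40, 3.32, 4.12 and 5.45 CPM. The groups did not overlap, although the highest 24 h liver and the lowest sham liver were close. The log2 change was -1.22 (SE 0.34, edgeR adjusted p = 0.00862), which passed in 9 of 9 fits without 1 library and missed the threshold when only these 2 groups were fitted (adjusted p = 0.0811). The KO to WT difference at 24 h did not pass (-0.62, 95% interval -1.38 to 0.14).

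Ncf4, the subunit that binds phosphoinositide lipids on the phagosome, had the lowest counts of the phagocyte members, 13 to 155 per library. KO 24 h replicates 1 to 4 stood at 1.16, 1.15, 0.710 and 0.669 CPM, and KO sham livers ranged from 0.908 to 1.84 CPM, which overlapped. The log2 change was -0.57 (95% interval -1.34 to 0.21, edgeR adjusted p = 0.267), an interval that includes both no change and a fall as large as that of Ncf1. Ncf4 had the highest log2 change of the 6 in the WT at 6 h, 0.73 (adjusted p = 0.289), with the 3 livers at 1.62 to 1.95 CPM and the sham livers at 0.984 to 1.96 CPM.

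Rac2, the GTPase of blood cells that completes the phagocyte oxidase, stood at 7.07, 2.13, 2.44 and 2.93 CPM in KO 24 h replicates 1 to 4. The KO sham livers, in order of replicate, had 8.54, 11.7, 7.45, 6.34 and 6.98 CPM. Replicate 1 lay within the sham range, and the other KO 24 h livers lay below it. The log2 change was -1.31 (SE 0.36, edgeR adjusted p = 0.00757), passing in 9 of 9 fits without 1 library. In the WT, Rac2 was lower at 24 h by -0.92 (adjusted p = 0.241) and at 48 h by -0.84 (adjusted p = 0.14) in edgeR, which did not pass. The difference between the genotypes' responses at 24 h was -0.38 (95% interval -1.44 to 0.67), which includes 0.

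Averaged over stages, no phagocyte member passed between the genotypes. The KO to WT intervals (95%, log2) were -0.59 to 0.05 for Cyba, -0.25 to 0.50 for Cybb, -0.50 to 0.16 for Ncf1, -0.53 to 0.23 for Ncf4 and -0.50 to 0.21 for Rac2. At 48 h Cybb was higher in the KO by 0.83 (edgeR adjusted p = 0.41), which did not pass. For the interactions at 6 h, 48 h and 7 d, 0 members passed by edgeR or DESeq2, 0% of genes passed by edgeR, and 0 members had an unadjusted p below 0.05. One KO female at 7 d, replicate 2, was the highest of all 37 libraries for each of the 5 phagocyte members, for example at 25 CPM for Cybb and 23.5 CPM for Rac2, and its summed Kupffer cell markers were 1212 CPM, beside 516 and 651 CPM in the other KO 7 d livers. Without it, the KO 7 d change of Cybb moved from 0.51 to 0.11.

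At the remaining stages the spread of the phagocyte members differed from group to group. At 48 h Cybb stood at 3.36, 7.23, 5.85 and 6.34 CPM in WT replicates 1 to 4 and at 8.75, 6.89, 4.48 and 18.8 CPM in KO replicates 1 to 4, of which replicate 4 was the only female. Rac2 at 48 h was more even in the WT, at 4.88 to 6.54 CPM, than in the KO, at 2.72 to 10.7 CPM, and KO 48 h replicate 3 was the lowest of its group for all 5 phagocyte members. At 7 d all 3 WT livers stood at 7.94 to 10.5 CPM for Cybb and 8.27 to 12.2 CPM for Rac2, within the range of the WT sham livers. At 6 h Cybb was 3.53 to 6.43 CPM in the KO and Cyba 5.36 to 9.10 CPM, against 8.18 to 9.38 CPM for Cyba in the WT.

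Between the sexes, the phagocyte members went the other way from Nox4. All 5 were lower in males by -0.66 to -0.55 on the log2 scale, each with an unadjusted p below 0.05, and Cyba alone passed (-0.66, SE 0.18, edgeR adjusted p = 0.0264), where 3.59% of genes passed in either direction and 1.97% as lower. Cyba averaged 9.60 ± 2.77 CPM in WT males (SD, n = 11) and 14.0 ± 3.92 CPM in WT females (SD, n = 7), with ranges of 5.83 to 16.9 and 7.56 to 19.4 CPM that overlapped. Rac2 was at -0.64 (adjusted p = 0.0623), Cybb at -0.59 (0.117), Ncf1 at -0.58 (0.0815) and Ncf4 at -0.55 (0.179). By DESeq2 4 members passed, Nox4, Cyba, Ncf1 and Rac2. In the same comparison 3 of 10 pan-leukocyte markers and 4 of 12 Kupffer cell markers were lower in males and none higher, and their part in the result was not tested.

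Markers of several cell types moved with the members in the KO at 24 h, where 28.0% of all tested genes passed and 12% as lower. Of the Kupffer cell markers 10 of 12 fell (median log2 change -1.42), among them Clec4f (-1.67), Csf1r (-1.65) and C1qc (-1.09), and of the pan-leukocyte markers 5 of 10 fell, among them Tyrobp (-1.18), Cd52 (-1.39) and Lcp1 (-0.62). Of the T and NK cell markers 7 of 11 fell, and of the B cell markers 4 of 8. Of the sinusoidal endothelial markers 7 of 10 fell and 1 rose. Of the neutrophil markers 0 of 10 passed by edgeR (0 at an unadjusted p below 0.05; DESeq2 values were taken for the members only), and of the monocyte-derived macrophage markers 1 of 10 fell. The summed Kupffer cell markers were 144 to 434 CPM in KO 24 h livers and 391 to 598 CPM in KO sham livers, with KO 24 h replicate 1 the highest of its group. Without KO 24 h replicate 1, a fit added after the data were seen, 10 of 12 Kupffer cell, 4 of 10 pan-leukocyte, 8 of 11 T and NK cell, 3 of 8 B cell, 7 of 10 endothelial, 3 of 10 monocyte-derived macrophage and 0 of 10 neutrophil markers were lower, where 39.6% of all tested genes passed and 19.3% as lower. None of the Kupffer cell or pan-leukocyte markers was at 0 throughout either group. The part of these cell types in the members' fall was not tested.

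The level of each member was also set against the summed pan-leukocyte markers, a list whose median fell less in the KO at 24 h (-0.75) than that of the Kupffer cell markers (-1.42). Cybb stood at 1.88 to 4.26 CPM per 100 CPM of these markers at 24 h (mean 2.73 ± 1.06, SD, n = 4) and at 4.03 to 8.12 in KO sham (mean 6.24 ± 1.76, SD, n = 5). The ranges overlapped through replicate 1. For Ncf1 the same quantity was 0.989 to 2.89 at 24 h and 2.65 to 3.70 in sham, and for Ncf4 it was 0.698 to 1.3 and 0.585 to 1.20. The ratios for Cyba overlapped as well, at 2.92 to 11.4 and 4.37 to 9.76, as did those for Rac2, at 2.39 to 6.20 and 4.08 to 7.10.

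**Figure D4:**
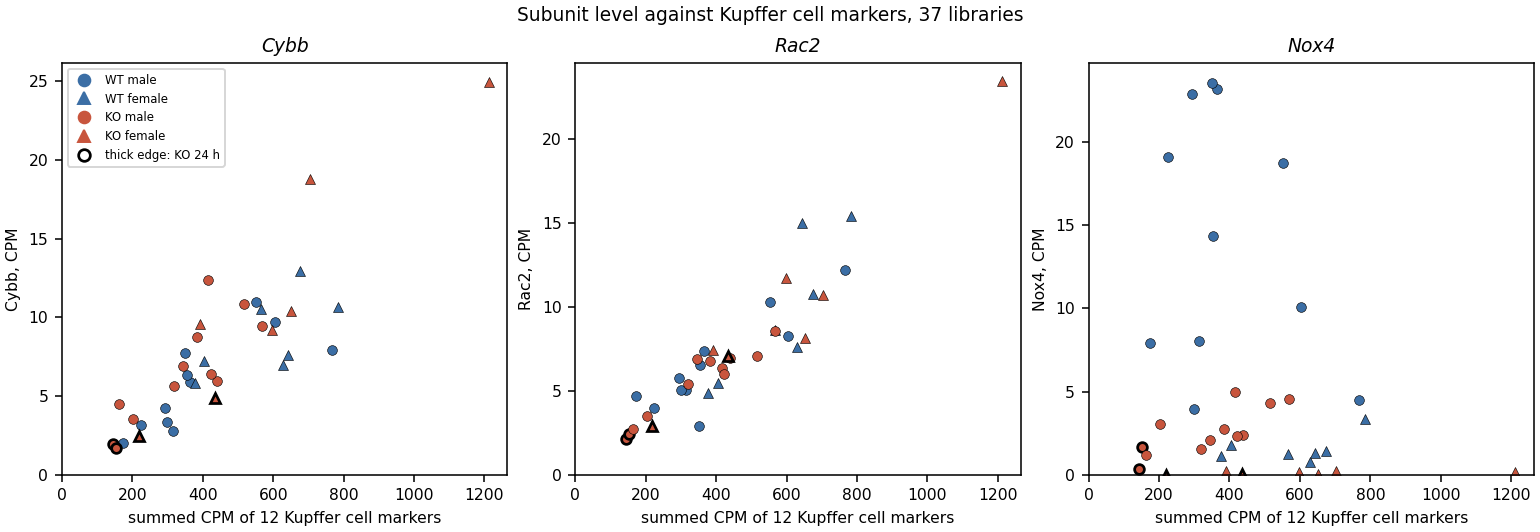
Level of Cybb, Rac2 and Nox4 in CPM (vertical axes) against the summed CPM of 12 Kupffer cell markers (horizontal axes) in 37 libraries, with WT in blue, KO in red, circles for males, triangles for females and thick edges for KO 24 h. Cybb and Rac2 rise with the marker sum and Nox4 does not, and 3 of the KO 24 h livers lie at the low end.

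In the WT at 6 h neutrophil markers rose while the oxidase genes, which neutrophils are known to carry, did not pass. Of the neutrophil markers 5 of 10 were higher, where 7.86% of all tested genes passed in either direction. They were led by S100a9 (3.40), S100a8 (3.88) and Retnlg (3.33) on the log2 scale. The sum of the neutrophil markers was 33.5 to 84.6 CPM against 5.02 to 17.1 CPM in WT sham. Over the same WT 6 h livers Cybb was at 4.26, 1.99 and 5.89 CPM, with a log2 change of -0.78 (95% interval -1.66 to 0.09), and Ncf1 at 4.81, 4.11 and 5.44 CPM, with 0.24 (95% interval -0.51 to 1.00). Ncf4 was at 1.85, 1.95 and 1.62 CPM, with 0.73 (95% interval -0.13 to 1.59), an interval that includes both no change and a rise. Cyba changed by -0.08 and Rac2 by -0.45. In the KO at 6 h 0 of the 10 neutrophil markers passed, and 5 had an unadjusted p below 0.05 in edgeR (median log2 change 1.56, beside 3.37 in the WT). The difference between the genotypes' responses at 6 h passed for 0 of the 10 by edgeR, and 0 had an unadjusted p below 0.05.

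Across all 37 libraries the phagocyte members went with markers of macrophages, though not of macrophages alone, and Nox4 did not go with macrophage markers. As a description without a test, Spearman's rho with summed Kupffer cell markers was 0.93 for Rac2, 0.84 for Cybb, 0.82 for Cyba, 0.76 for Ncf1, 0.52 for Ncf4 and -0.21 for Nox4. With summed monocyte-derived macrophage markers it was 0.80 for Cyba, 0.79 for Ncf1, 0.78 for Ncf4, 0.74 for Rac2, 0.67 for Cybb and -0.09 for Nox4, so that for Ncf1 and Ncf4 it was above the value with Kupffer cell markers. With summed neutrophil markers it was 0.46 for Ncf4 and 0.23 for Ncf1, and -0.17 for Cybb. With summed T and NK cell markers it was 0.83 for Rac2, 0.73 for Cybb, 0.67 for Ncf1, 0.57 for Cyba, 0.51 for Ncf4 and -0.05 for Nox4. Over the 5 phagocyte members it was 0.39 to 0.69 with B cell markers and 0.13 to 0.58 with sinusoidal endothelial markers. The libraries share stage, sex and depth, and the values with the 10 groups and sex taken out were 0.88 for Rac2 and 0.74 for Cybb with Kupffer cell markers, and for Ncf4 0.55 with neutrophil and 0.54 with monocyte-derived macrophage markers. Taken out in the same way, the 5 phagocyte members were at 0.32 to 0.72 with T and NK cell markers. They were at -0.04 to 0.36 with B cell markers and -0.12 to 0.62 with sinusoidal endothelial markers. Between members, rho was 0.82 for Cyba and Rac2, 0.80 for Cybb and Rac2, 0.75 for Ncf1 and Ncf4 and 0.30 for Cybb and Ncf4. Nox4 was at -0.21 to -0.09 with the other 5. With the groups and sex taken out, rho of Nox4 and Cybb was 0.52, beside 0.53 for Cybb and Rac2 and 0.34 for Cyba and Cybb, and Nox4 was at -0.18 to 0.13 with the other 4.

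**Figure D5:**
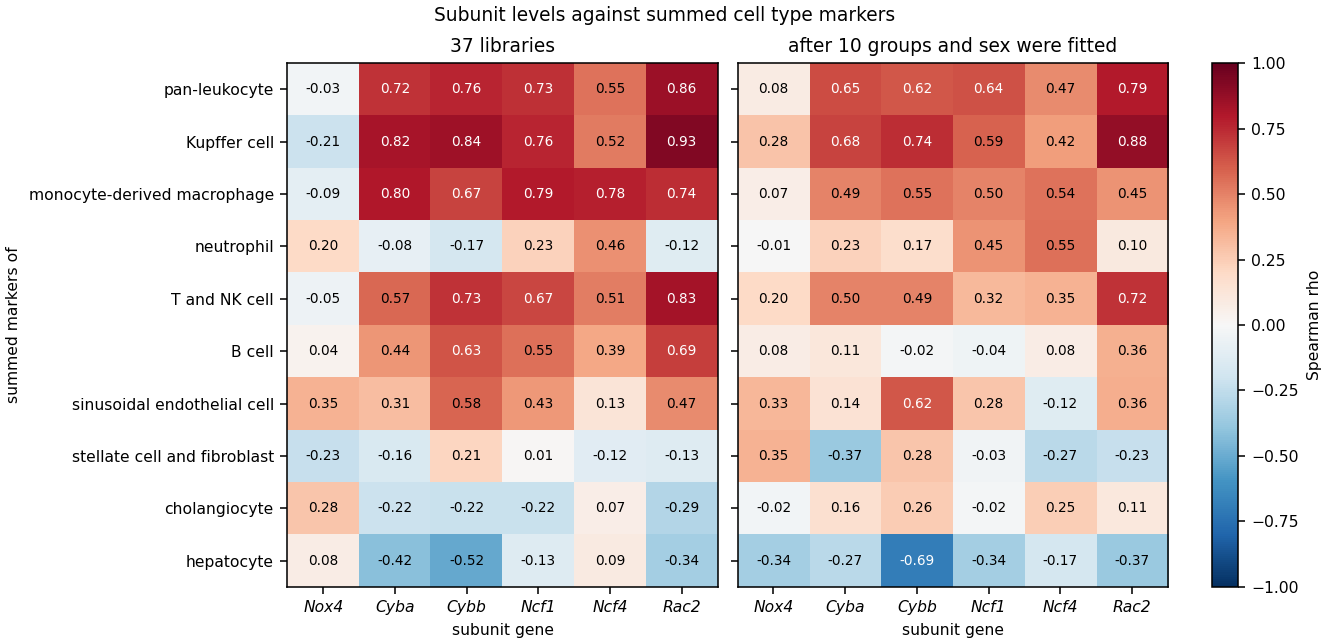
Spearman's rho between the level of each subunit (columns) and the summed markers of 10 cell types (rows) over 37 libraries, on the left as measured and on the right after the 10 groups and sex were fitted, with red for positive and blue for negative values. The 5 phagocyte members are red for pan-leukocyte and Kupffer cell markers and Nox4 lies between -0.21 and 0.28 for them. On the left Cyba (-0.08), Cybb (-0.17) and Rac2 (-0.12) are negative for neutrophil markers. On the right Cybb (-0.02) and Ncf1 (-0.04) are negative for B cell markers.

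The genes whose pattern was most like that of each member, among 11669 genes with a mean of at least 1 CPM, differed from member to member. By rho over 37 libraries they were Cmtm7 (0.93), Dok2 (0.92) and Lrrc25 (0.88) for Cyba, and Adcy7 (0.94), Cd300ld (0.93) and Vsig4 (0.91) for Cybb. For Ncf1 they included Spi1 (0.88) and Cd300a (0.88), and for Ncf4 they were Irf8 (0.88), Coro1a (0.87) and Fcgr3 (0.85). For Rac2 they were Cfp (0.94), C1qc (0.94) and Pld4 (0.93). For Nox4 they were Serpine2 (0.83), Susd4 (0.83) and Moxd1 (0.82), and among the 18 WT libraries alone they were Mup21 (0.94), Eif2s3y (0.93) and Mup20 (0.92), of which Eif2s3y lies on the Y chromosome. The values over 37 libraries carry the differences of Nox4 between genotypes and sexes, and the WT values that between the sexes. With the 10 groups and sex taken out, the genes most like Nox4 were A1cf (0.81), Rngtt (0.81) and Tbc1d8b (0.78).

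Of the other NADPH oxidase genes 7 of 13 had enough counts to be tested. Rac1, the widely expressed relative of Rac2, was higher in the KO than in the WT at 24 h by 0.56 (SE 0.16, edgeR adjusted p = 0.0176). It was the only 1 of the 7 to pass there, where 18.6% of all tested genes passed. Without KO 24 h replicate 1, 1 was higher and 1 lower, where 35% passed. Against sham 1 of the 7 fell in the KO at 24 h, where 28.0% passed. Without KO 24 h replicate 1, 2 rose and 2 fell, where 39.6% passed. Per kilobase Rac1 averaged 25.6 CPM over the 37 libraries, above the 2.41 of Rac2. Nox3 had no count in any library, and Nox1 had at most 3. Duox2, a dual oxidase of epithelia, had a median of 0 CPM but reached 8.09 CPM (328 counts) in WT sham replicate 1, a male, and 6.09 CPM in WT 48 h replicate 3, a female. Its maturation factor Duoxa2 was also highest in WT sham replicate 1, at 2.76 CPM.

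A list of 10 genes that act on the switching of the phagocyte oxidase was examined, not all of which switch it on. Of these, 5 fell in the KO at 24 h and none rose (median log2 change -0.71), and without KO 24 h replicate 1 5 fell and 2 rose. Among all tested genes 28.0% passed in that comparison and 12% as lower, and 39.6% and 19.3% without KO 24 h replicate 1. The summed level of the 10 did not fall, at 57.7 to 131 CPM (median 114) in KO 24 h livers. In KO sham livers it was 69.1 to 104 CPM (median 87.4). The 5 that fell included Dock2, an exchange factor for Rac (-1.80, edgeR adjusted p = 0.00134), Prex1, another (-1.13), and Prkcb, a kinase of the cytosolic subunits (-1.04). Between the genotypes at 24 h 3 of 10 were lower in the KO, namely Arhgdib, which holds Rac in the cytosol (-1.37), Dock2 (-1.43) and Pak1 (-1.03), and without KO 24 h replicate 1 there were 5 lower and 2 higher. Among all tested genes 18.6% passed between the genotypes and 7.50% as lower, and 35% and 17.4% without KO 24 h replicate 1.

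Among 13 genes that remove superoxide and peroxide, 1 rose and 2 fell in the KO at 24 h, a share below the 28.0% of all tested genes that passed there. The numbers were 1 and 3 without KO 24 h replicate 1, where 39.6% of all tested genes passed. Gpx3, a secreted peroxidase, rose by 2.34 on the log2 scale, and Cat (catalase, -1.62) and Prdx2 (-0.60) fell. In the WT at 24 h 1 of 13 fell, Cat (-1.28), where 0.925% of all tested genes passed in either direction. In the WT at 48 h 4 of 13 fell, among them Cat (-1.28), Prdx6 (-1.0) and Gpx1 (-1.06), where 8.29% of genes passed. In the KO at 48 h 1 of 13 fell, Cat (-0.81, edgeR adjusted p = 0.0465), where 3.0% of genes passed. Sod2, the mitochondrial superoxide dismutase, rose at 6 h in the WT (0.88) and the KO (0.81). It was the only 1 of the 13 to pass in each, where 7.86% and 6.62% of all tested genes passed.

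Transforming growth factor beta is known to induce Nox4, and 12 genes of its signalling were listed. At 6 h 4 of 12 rose in the WT, among them Skil (2.14) and Pmepa1 (1.48), and 5 of 12 in the KO, among them Tgfb3 (2.66) and Pmepa1 (1.76). Among all tested genes 7.86% passed at 6 h in the WT and 6.62% in the KO, in either direction. In the KO at 24 h 4 of 12 rose, including Tgfbr2 (2.30) and Smad2 (0.88), and none fell. Among all tested genes 28.0% passed there in either direction and 12% as lower. When KO 24 h replicate 1 was left out, 5 rose and 1 fell, where 39.6% of all tested genes passed. The log2 change of Nox4 at 6 h was -0.29 in the WT and -0.59 in the KO, and neither passed. In the KO at 24 h it was -2.08 (edgeR adjusted p = 0.0156). Reads left of a deleted gene may not show how that gene is induced. Any effect of this signalling on Nox4 was not tested. Between the genotypes at 24 h Tgfbr2 (2.53) and Tgfb2 (2.32) were higher in the KO and Tgfb1 (-0.86) was lower, and without KO 24 h replicate 1 there were 3 higher and 2 lower. Among all tested genes 18.6% passed between the genotypes, and 35% without KO 24 h replicate 1.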

How the data were processed

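Liver RNA of 37 samples was sequenced from libraries made with the KAPA stranded mRNA kit, per the labels' protocols. The submitters' processing notes name STAR 2.5.3a, RSEM 1.3.0 and GRCm38. The annotation, strand setting and filters are not given in the sources used here. The deposited table was taken to hold expected counts rounded by the authors, since all values are whole numbers.

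Counts were analysed in R 4.3.3 with edgeR 4.0.16. After filterByExpr and TMM scaling, a single robust quasi-likelihood fit of the 37 libraries had terms for 10 groups and sex (common biological coefficient of variation 0.39). Benjamini-Hochberg adjustment covered the 15564 genes tested, and an adjusted p under 0.05 passed. A second fit added sex within the KO. SE was taken as the size of a log2 change over the root of its F statistic. Transcript lengths came from GENCODE M21, in which 54435 of 55487 identifiers matched. Likeness used log2(CPM + 1). Named genes were the 6 members, up to 3 genes of a list with the smallest p in the comparison described, and the 3 genes with the highest rho to each member. Some genes that this rule names are not reported here. The members and lists were chosen with earlier results of these data known. Duox2 and Duoxa2 were named after their values were seen. The labelled sex matched sex-linked transcripts in 37 of 37 libraries, and the most alike replicates of a group still differed (chi-square 32.1 for each degree of freedom). Alternatives tried were RLE scaling, DESeq2 1.42.0, a model without sex, no count filter, the compared groups alone, males alone, no 6 h sham livers and leaving out each library. The model was tested on simulated data. Figures were drawn with matplotlib 3.10.9.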

Additional observations from a re-analysis of the deposited data

Results flagged for a closer look

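Rac2 in KO 24 h replicate 1, at 7.07 CPM, lay far from the other KO 24 h livers, which stood at 2.13 to 2.93 CPM. Its gap to the nearest of them was 0.838 of the range of the group. In all, 30 sets of values (6 members in 5 groups of 4 or 5 libraries) were examined in this way and 1 stood out, and chance gives about 1 in 20. The same library had the highest summed Kupffer cell markers of its group (434 CPM, the others 144 to 219 CPM).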

How the results depend on the processing

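In the KO at 24 h against sham the count of members that passed was 5 and went to 3 without the sex term and 2 in a fit of the compared groups alone (3 to 5 when 1 library was left out). In KO against WT it was 3 at 24 h, with 1 and 0 under the same settings (1 to 3). In sham livers it was 1, with 0 without the sex term and in males alone (0 to 1). At 48 h it was 1, with 0 without the sex term, in males alone and in the compared groups alone (0 to 1). At 6 h it was 0, with 1 without the count filter and 1 by DESeq2 (0 to 1), and at 7 d 0, with 1 without the count filter. The interaction at 24 h went from 0 to 1 without the count filter (0 to 2). Between the sexes it was 2, with 5 without the count filter, 4 by DESeq2 and 1 without the 6 h sham livers (1 to 4). In the other 12 comparisons the count was the same under every setting run. The direction of Cybb in KO against WT averaged over stages reversed in males alone, from 0.13 to -0.0091. In a fit of the 2 groups alone, of no sex term or of fewer libraries, fewer samples or terms carry the test, and other causes were not tested. No paired analysis was possible because the replicate numbers only name samples in accession order. Counts of 0 to 9 limit Nox4 in KO females.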
